A study of Mus musculus with 3 samples.

Results

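Proteasome genes were examined in adult lung endothelial cells (ECs). The members were all rows of the deposited table whose symbol starts with Psm, continues with a letter from a to g and ends in a number, with or without one further letter. This rule found 49 of 24346 genes, chosen by name and not by level. The study set the kidney vasculature against that of other organs, and the samples described here are its lung arm. They are 3 libraries, called S38, S44 and S52 as in the sample titles, all of 1 condition. The cells came from the lungs of wild type C57BL/6J mice, adult males aged 6 to 8 weeks per the study's methods and were not cultured. They had been labelled in the living animal by an injected antibody to VE-cadherin and were sorted as CD31+ cells without CD45 or podoplanin. No source says whether each library came from its own mouse, so the spread between libraries may be technical.

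The proteasome is the barrel-shaped protease that degrades proteins tagged with ubiquitin. Its 20S core is built of rings of α subunits (*Psma* genes), which gate the barrel, and rings of β subunits (*Psmb* genes), of which β1, β2 and β5 cut the substrate. The 19S cap (*Psmc* ATPases and *Psmd* subunits) recognises, unfolds and feeds in ubiquitylated proteins. In immune cells, and in many other cells exposed to interferon-γ, the inducible subunits encoded by *Psmb9*, *Psmb10* and *Psmb8* replace β1 (*Psmb6*), β2 (*Psmb7*) and β5 (*Psmb5*) in newly built cores. The resulting immunoproteasome favours peptides that fit MHC class I molecules. The PA28 cap of *Psme1* and *Psme2*, also inducible by interferon-γ, opens the core without ubiquitin.

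The genes of the catalytic pairs differ in their genomic setting. Positions are those of GENCODE M21 on GRCm38, the mm10 build that the table uses. *Psmb8* (chromosome 17, 34197721 to 34201454, plus strand, 6 exons in its longest basic transcript) and *Psmb9* (chromosome 17, 34181987 to 34187764, minus strand, 6 exons) lie on both sides of *Tap1*, which encodes a subunit of the peptide transporter of class I loading. The annotated *Psmb9* and *Tap1* genes run head to head and share 212 bases at their starts, where reads without strand cannot be told apart. *Psmb8* begins 496 bases after the end of *Tap1*, and the stretch from *Psmb9* to *Psmb8* spans 19468 bases. *Psmb10* stands alone on chromosome 8 (105935735 to 105938444, minus strand, 8 exons). The constitutive partners are on other chromosomes: *Psmb5* on chromosome 14 (54614119 to 54618022, minus strand, 3 exons), *Psmb6* on chromosome 11 (70525367 to 70527858, plus strand, 6 exons) and *Psmb7* on chromosome 2 (38588036 to 38644087, minus strand, 8 exons).

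Promoter sequences are shown for an inducible and a constitutive gene at the β5 and β1 sites, because these pairs differed most in level. They are from RefSeq (build GRCm38.p6), each the 250 bases before the start of the gene, 5′ to 3′ on the gene's strand. RefSeq places some starts elsewhere than the GENCODE models above. The stretches shown for *Psmb8* and *Psmb9* lie within the GENCODE genes, so their matches are downstream of the GENCODE starts. The searches covered 300 bases, 250 before and 50 after the start, on both strands, for an interferon-stimulated response element core (GAAA, 2 bases of any kind, GAAA), an interferon-γ activated site core (TTCNNNGAA), an antioxidant response element core (TGACNNNGC), a GC box (GGGCGG) and a TATA box (TATAAA). Capitals mark the matches, which do not overlap each other in the sequences shown. In *Psmb8* they are a TATA box 237 bases and an activated site core 97 bases before the start. In *Psmb9* the match is a GC box. In *Psmb5* it is an antioxidant element core, and in *Psmb6* a GC box and an antioxidant element core.
Psmb8, chr17:34197945-34198194, plus strand: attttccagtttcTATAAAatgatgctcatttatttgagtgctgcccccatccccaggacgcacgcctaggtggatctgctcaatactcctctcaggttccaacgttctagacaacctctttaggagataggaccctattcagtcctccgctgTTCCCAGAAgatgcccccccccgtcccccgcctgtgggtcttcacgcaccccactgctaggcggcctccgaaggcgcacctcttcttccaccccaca
Psmb5, chr14:54617996-54618245, minus strand: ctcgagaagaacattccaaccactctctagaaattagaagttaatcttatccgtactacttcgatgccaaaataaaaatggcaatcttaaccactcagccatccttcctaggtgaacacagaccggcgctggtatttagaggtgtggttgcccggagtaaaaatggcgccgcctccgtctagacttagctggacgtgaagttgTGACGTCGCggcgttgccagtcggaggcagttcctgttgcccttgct
Psmb9, chr17:34187331-34187580, minus strand: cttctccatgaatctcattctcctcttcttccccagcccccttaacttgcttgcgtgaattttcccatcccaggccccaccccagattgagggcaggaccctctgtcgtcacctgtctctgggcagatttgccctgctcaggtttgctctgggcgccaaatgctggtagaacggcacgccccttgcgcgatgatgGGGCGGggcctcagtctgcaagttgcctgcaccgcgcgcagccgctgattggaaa
Psmb6, chr11:70525107-70525356, plus strand: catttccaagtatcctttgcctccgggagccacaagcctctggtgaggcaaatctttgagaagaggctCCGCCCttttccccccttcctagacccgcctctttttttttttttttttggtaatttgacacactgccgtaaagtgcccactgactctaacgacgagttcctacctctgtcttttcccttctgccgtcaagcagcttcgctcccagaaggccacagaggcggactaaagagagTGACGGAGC

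Promoter windows were matched for 41 of the 49 members, and *Psmb7* was not among them. The activated site core of *Psmb8* was found in 3 of the 41 (7.32%) and in 8.47% of the 27025 promoters of all genes. The antioxidant element core of *Psmb5* and *Psmb6* was found in 6 of 41 (14.6%) and in 12.5% of all promoters. The GC box was more frequent in the members, in 23 of 41 (56.1%) against 35.9% of all promoters, and the TATA box was found in 4 of 41 (9.76%) against 14.2%. The interferon-stimulated element core was found in 5 of 41 (12.2%) against 3.49% of all promoters. These 5 were *Psme1*, *Psmb3*, *Psmd4*, *Psmd9* and *Psmg4*. None of the 5 motifs was found in the *Psmb10* window. The GENCODE model of *Psme1*, the PA28α gene, begins upstream of the RefSeq start, at 55578123. In *Psme1* the match starts 10 bases after the RefSeq start, and is shown in capitals with 10 bases on each side.
Psme1, chr14:55578493-55578522, plus strand: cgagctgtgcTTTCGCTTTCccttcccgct
These are matches of letters, and binding of a factor was not measured.

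Values are FPKM, fragment numbers divided by gene length and by a total for the library, so levels of different genes are compared per length. Depth is not part of the table and was estimated from the step between low FPKM values, at about 37900000 fragments for S38, 38800000 for S44 and 34000000 for S52. These totals are depths only if the libraries were not also scaled against each other. For a transcript of 1000 bp, 1 FPKM then stood for 31.8, 32.6 and 28.6 fragments. The lowest value of a catalytic subunit, 61.8 FPKM for *Psmb5* in S52, would stand for 1766 fragments at that length, a counting error of 2.38%. Counting error was thus small beside most of the differences below. Endothelial identity was checked on 8 marker genes (*Pecam1* and *Cdh5* among them), all at 43.1 FPKM or above in every library, with sums of 4503 to 5026 FPKM. S52 stood apart in genes of some other cells, with lower leukocyte, platelet and epithelial lists but not a lower mural list. The 11 leukocyte markers had sums of 2079 FPKM (S38), 1900 (S44) and 1076 (S52), and in S52 *Tyrobp*, *Cd3e* and *Nkg7* were listed at 0. Of this list *Cd74* did not fall, at 894, 999 and 896 FPKM, and it made up most of the S52 sum. The 4 platelet markers summed to 1692, 1345 and 37.96 FPKM in the same order. Epithelial markers followed the same order, with sums of 3778, 3164 and 755 FPKM for 5 alveolar type 2 genes and 2767, 2303 and 401 FPKM for 4 airway genes, and each of these genes was highest in S38. In S38 *Sftpc*, a surfactant gene, at 3333 FPKM, and *Scgb1a1*, a club cell gene, at 2669 FPKM, exceeded every endothelial marker. They did so in S44 too, at 2862 and 2212.5 FPKM. The 4 mural genes went another way, with medians of 6.11 FPKM (S38), 4.05 (S44) and 9.59 (S52). Of these, 3 were highest in S52 and *Acta2* in S38. The 4 fibroblast genes had medians of 9.51, 7.56 and 8.71 FPKM. In such bulk samples fewer cells of a type and less RNA per cell cannot be told apart.

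Proteasome genes were among the abundant transcripts of the lung ECs. The mean reached 1 FPKM for 47 of 49 members, against 48.3% of all genes, and 10 FPKM for 45, against 25.7%. By mean level 34 members were above the 90th percentile of all genes. The exceptions below 1 FPKM were the tissue-restricted core subunits. *Psma8*, the α subunit of the testis, was at 0.736 FPKM in S38, 0.668 in S44 and 0.172 in S52, and *Psmb11*, the β5 subunit of the thymic cortex, at 0.283, 0.419 and 0.675 FPKM. All of these are above the 0.105 FPKM or less that a value of 0 would allow for 1000 bp (3 fragments, counting error only).

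**Figure D1:**
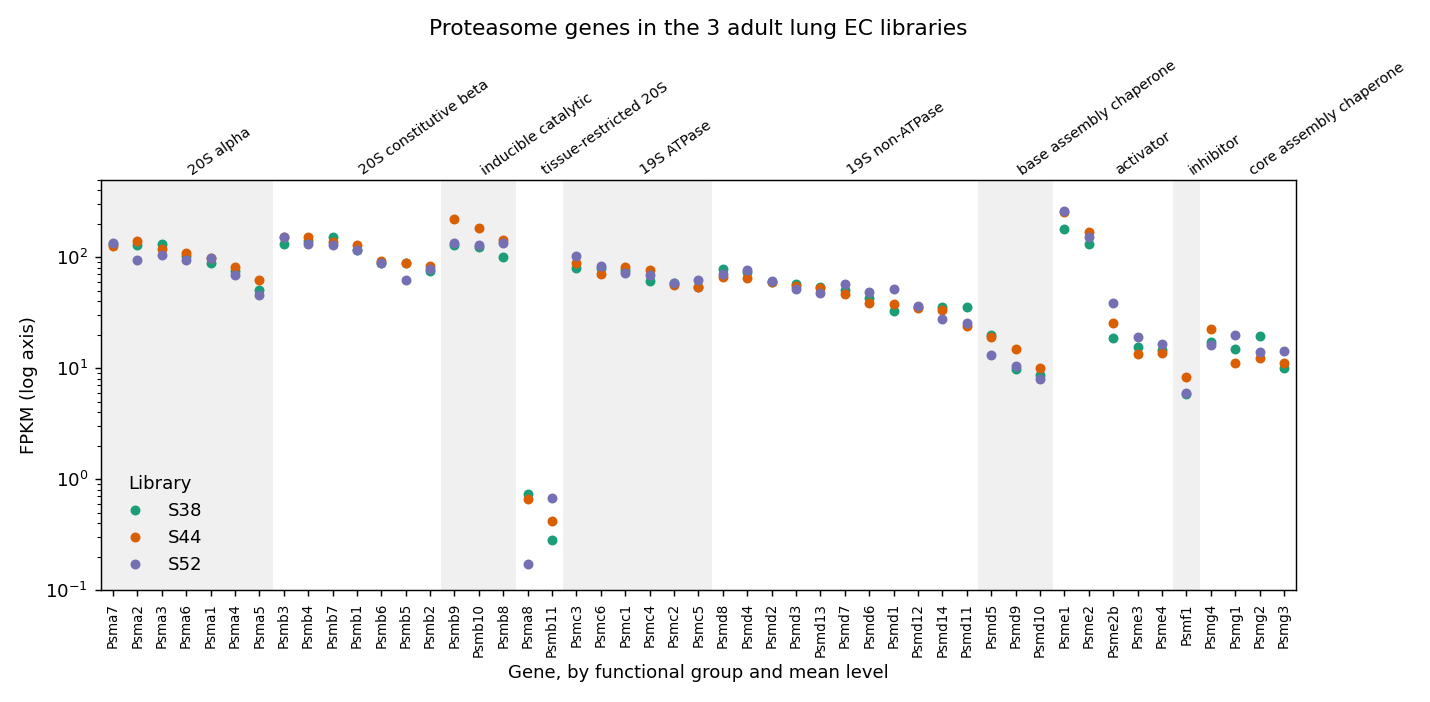
FPKM on a log axis (vertical) of the 49 proteasome genes (horizontal), ordered by functional group and mean level, with 1 point per library. The 20S and 19S subunits lie between 23.9 FPKM (*Psmd11* in S44) and 220 FPKM (*Psmb9* in S44), *Psme1* reaches 260 FPKM in S52, the chaperones, *Psme3*, *Psme4* and *Psmf1* are lower, and *Psma8* and *Psmb11* are below 1 FPKM in every library.

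The functional groups differed in level. The median over the 3 inducible catalytic subunits was 145 FPKM, followed by 121 FPKM for the 7 constitutive β subunits and 102 FPKM for the 7 α subunits. The 19S genes were lower, at 72.7 FPKM for the 6 ATPases and 51.3 FPKM for the 11 other subunits. Chaperones that help assembly and leave the finished particle were lower again, at 15.3 FPKM for the 4 core chaperones (*Psmg* genes) and 11.8 FPKM for the 3 base chaperones (*Psmd5*, *Psmd9* and *Psmd10*). The single inhibitor, *Psmf1*, which encodes PI31, was lowest of the detected members with 5.83 FPKM for S38, 8.36 for S44 and 6.01 for S52.

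Within the core, subunits that are present in equal number in each particle had unequal transcript levels. By mean, *Psma7* was highest among the α genes, at 130 FPKM in S38, 127 in S44 and 133 in S52, and *Psma5* lowest, at 50.3, 62.5 and 45.8 FPKM. The mean of *Psma7* was 2.46-fold that of *Psma5*, and their values did not overlap. In single libraries *Psma3* in S38 and *Psma2* in S44 were above *Psma7*. For *Psma5*, however, 54.8% of the 51-base windows of its longest transcript, the length of a read, also occur in transcripts of other genes, so the assignment of its reads is uncertain. Among the constitutive β genes *Psmb3* was highest by mean, at 132, 153 and 152 FPKM, and *Psmb2* lowest by mean, at 75.3, 83.7 and 77.6 FPKM. In S38 *Psmb7* and *Psmb4* were above *Psmb3*, and in S52 *Psmb5* was below *Psmb2*. Of the windows of *Psmb3* 55.0% are shared with other genes, and those of *Psmb2* are unique. The noncatalytic *Psmb4*, at 141 ± 10.2 FPKM (SD, n = 3 libraries), and *Psmb1*, at 121 ± 7.48 FPKM (SD, n = 3), lay between them. The remaining α genes had means from 75.7 FPKM (*Psma4*) to 121 FPKM (*Psma2*).

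The 19S cap genes were lower than those of the core by median. The ratio of the 19S median (17 genes) to the median of the 14 constitutive 20S genes was lowest for S44 (0.483) and higher for S38 (0.518) and S52 (0.609). On the log2(FPKM + 1) scale the mean difference was -0.89 ± 0.17 (SD, n = 3), lower in 3 of 3 libraries (two-sided exact sign-flip permutation test, p = 0.25, adjusted p = 0.3 over 6 comparisons). With 3 libraries this test cannot give a p below 0.25, so no comparison here could pass a threshold of 0.05. Within the cap, the ATPase *Psmc3* was at 79.7, 89.3 and 102 FPKM and *Psmc5* at 53.3, 53.8 and 62.4 FPKM. These are the highest and lowest ATPase genes by mean, and they did not overlap. Among the other cap genes, *Psmd8* was at 78.9, 66.9 and 70.3 FPKM and *Psmd11*, a scaffold subunit of the lid, at 35.4, 23.9 and 25.4 FPKM. The ubiquitin receptor *Psmd4* was at 71.8 ± 5.77 FPKM, and the deubiquitylase *Psmd14* at 32.5 ± 4.03 FPKM (SD, n = 3 for each). The remaining ATPases had means from 57.8 FPKM (*Psmc2*) to 78.0 FPKM (*Psmc6*). Those of *Psmd3*, *Psmd6*, *Psmd7* and *Psmd13* were from 43.4 to 54.4 FPKM.

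The inducible catalytic subunits were set against their constitutive partners, to ask how the transcripts of the immunoproteasome compare with those of the standard core. *Psmb8* was at 100 FPKM in S38, 142 in S44 and 134 in S52, and its partner *Psmb5* at 88.8, 88.6 and 61.8 FPKM. *Psmb8* was thus higher in each library, by 1.13-fold, 1.60-fold and 2.16-fold. *Psmb9* was at 129, 220 and 135 FPKM, and its partner *Psmb6* at 88.0, 92.2 and 88.7 FPKM. The lowest value of *Psmb9* exceeded the highest of *Psmb6*, and the ratios were 1.46, 2.38 and 1.52. *Psmb10* was at 124, 181 and 128 FPKM and its partner *Psmb7* at 153, 136 and 128 FPKM. At this site the values overlapped, and the inducible gene was at 0.815, 1.33 and 1.01 times its partner.

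**Figure D2:**
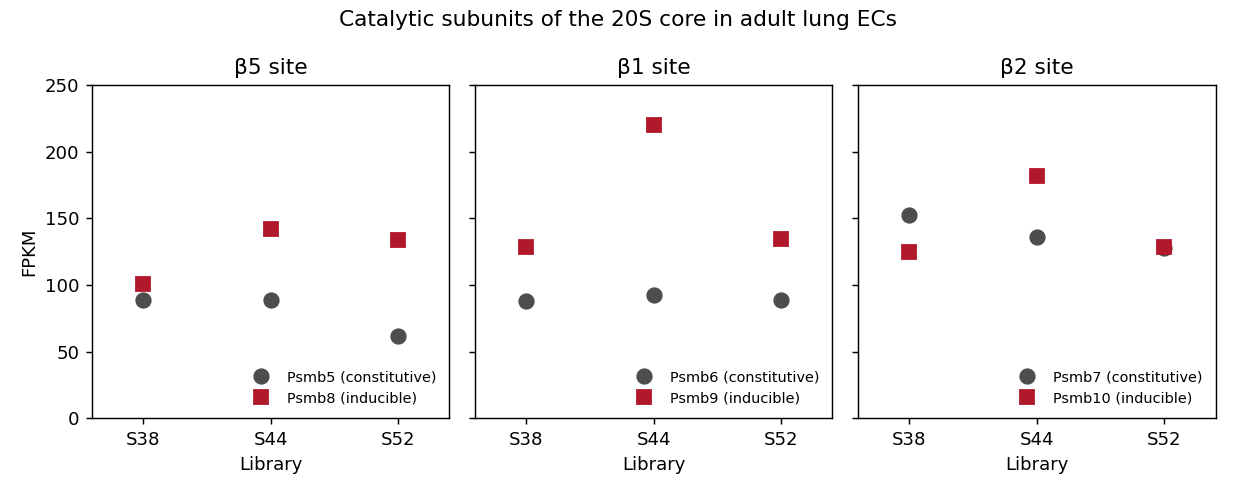
FPKM (vertical) of the constitutive (grey circles) and inducible (red squares) catalytic subunit at the β5, β1 and β2 sites, in each of the 3 libraries (horizontal). The red squares are above the circles in every library at β5 and β1, whereas at β2 the order differs between S38 and S44 and the values nearly coincide in S52.

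Averaged over the sites, the inducible subunits were higher by 0.50 ± 0.32 on the log2(FPKM + 1) scale (SD, n = 3), with 0.14 in S38, 0.78 in S44 and 0.57 in S52 (exact sign-flip permutation test, p = 0.25, the smallest possible, adjusted p = 0.3). By site the log2 difference was 0.65 ± 0.46 at β5 and 0.79 ± 0.39 at β1, each positive in 3 of 3 libraries (exact p = 0.25 and adjusted p = 0.3 for both). At β2 it was 0.043 ± 0.35, positive in 2 of 3 (exact p = 0.75, adjusted p = 0.75), and without S44 it was -0.14. The difference at β2 was therefore smaller than the spread between libraries. As a share of the pair's FPKM, the inducible gene held 53.1%, 61.6% and 68.4% at β5, or 61.0% ± 7.67 (SD, n = 3). At β1 it held 63.4% ± 6.14 and at β2 50.7% ± 6.15 (SD, n = 3 for each). Over the 3 sites together they held 51.8% (S38), 63.2% (S44) and 58.8% (S52). A caution applies to β5, since 56.2% of the read-length windows of *Psmb5* also occur in other genes, mainly the pseudogene *Gm3375*, against 5.70% for *Psmb8*. The shares were 12.4% for *Psmb9*, of which all are the overlap with *Tap1*, 2.54% for *Psmb6*, 27.9% for *Psmb7* and none for *Psmb10*.

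The inducible genes were also set against the whole constitutive core. The geometric mean of *Psmb8*, *Psmb9* and *Psmb10* was 1.07, 1.56 and 1.37 times the median of the 14 constitutive 20S genes in S38, S44 and S52. By mean level *Psmb9* ranked 2, *Psmb10* 5 and *Psmb8* 9 among the 49 members.

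Of the activators, PA28α and PA28β were far above the others. *Psme1* was the highest of all members, at 180 FPKM in S38, 253 in S44 and 260 in S52, and *Psme2* was at 131, 169 and 151 FPKM. *Psme3*, which encodes the nuclear PA28γ, was at 15.6, 13.5 and 18.96 FPKM, and *Psme4*, which encodes PA200, at 14.7, 13.8 and 16.6 FPKM. The lowest value of *Psme2* was thus several times the highest of *Psme3*. The mean of *Psme1* and *Psme2* exceeded *Psme3* by 3.46 ± 0.33 on the log2(FPKM + 1) scale (SD, n = 3), or 10.99-fold, in 3 of 3 libraries (exact sign-flip permutation test, p = 0.25, adjusted p = 0.3). *Psme2b*, an intronless gene on chromosome 11, was at 18.6, 25.7 and 38.4 FPKM. It shares 537 of its 787 read-length windows with *Psme2*, so the split of reads between these genes is uncertain.

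Between libraries most proteasome genes varied by less than 2-fold. Of the 47 detected members 1, *Psme2b*, spanned more than 2-fold from its lowest to its highest value (2.13%, against 20.1% of all detected genes), and without S38 or without S52 none did. With the libraries rescaled to equal FPKM sums, *Psme2b* was no longer among them and *Psmd11*, *Psmg1* and *Psmg2* were (6.38%, against 27.7% of all detected genes). These shares are not matched for level, since 45 of the members were at 10 FPKM or above. The median coefficient of variation over the detected members was 11.5%, against 17.6% over all genes at 1 FPKM and 13.9% over all genes at 10 FPKM. The steadiest were *Psmd2*, at 59.5, 60.1 and 61.1 FPKM, and *Psmd12*, at 35.7, 34.8 and 36.3 FPKM. After *Psme2b* (2.06-fold), the widest ranges were those of *Psmg1* (1.78-fold), *Psmb9* (1.71-fold), *Psmd1* (1.60-fold) and *Psmg2* (1.57-fold). *Psmg1* was at 14.8, 11.2 and 20.01 FPKM, *Psmg2*, its partner in a chaperone dimer, at 19.4, 12.4 and 13.96 FPKM, and *Psmd1*, the large scaffold subunit of the base, at 32.6, 38.1 and 52.04 FPKM. Both chaperones were lowest in S44, and they were highest in different libraries. The other chaperones were *Psmg3*, at 9.94, 11.03 and 14.3 FPKM, *Psmg4*, at 17.2, 22.6 and 16.3 FPKM, *Psmd5*, at 19.8, 19.05 and 13.1 FPKM, *Psmd9*, at 9.75, 15.0 and 10.5 FPKM, and *Psmd10*, at 8.75, 10.02 and 8.002 FPKM.

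**Figure D3:**
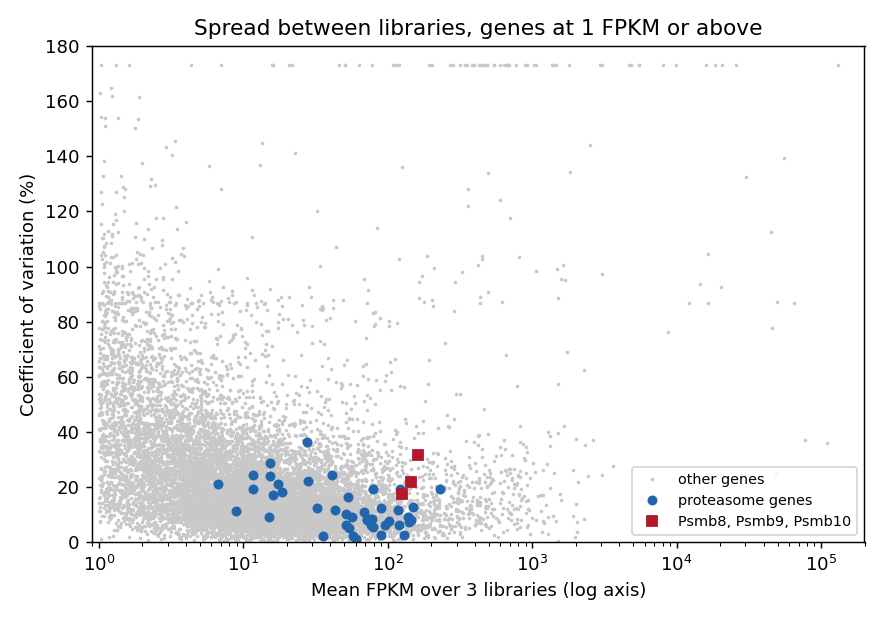
Coefficient of variation over the 3 libraries in percent (vertical) against mean FPKM on a log axis (horizontal) for all 11770 genes at 1 FPKM or above. The 47 proteasome genes (blue circles and red squares) reach at most 36.3% (*Psme2b*), and *Psmb9*, at 31.6%, is the highest of the inducible subunits.

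The libraries did not rank the subunit groups alike. As deposited, all 3 inducible subunits were highest in S44, as were 20 of the 47 detected members (42.6%, against 28.9% of all detected genes), and both counts fall with another scaling, given below. Against S38, *Psmb9* was higher in S44 by 0.77, *Psmb10* by 0.54 and *Psmb8* by 0.50 on the log2(FPKM + 1) scale, and *Psme1* and *Psme2* by 0.49 and 0.36. The constitutive partners moved less, by -0.003 for *Psmb5*, 0.067 for *Psmb6* and -0.17 for *Psmb7*, and the median over the detected members was 0.095. In S52, 16 of 47 detected members were lowest (34.0%, against 46.3% of all detected genes) and 17 highest (36.2%, against 33.9%). The latter count falls with equal FPKM sums, but not with scaling by the median ratio. By group, as deposited, 10 of 17 cap genes were highest in S52, but 1 of 14 constitutive core genes, *Psma7*. Both of these counts also fall with equal FPKM sums, as given below. These are descriptions of 3 libraries of 1 condition.

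Scaling bears on these directions between libraries but not on ratios within a library. Rescaling each library to an equal FPKM sum moved the median gene at 10 FPKM or above by -0.45 in S44 and -0.29 in S52 relative to S38 on the log2 scale. After that rescaling the difference between S44 and S38 was 0.29 for *Psmb9*, 0.025 for *Psmb8* and 0.068 for *Psmb10*, and -0.37 for the median detected member. Since the rescaling moves all genes of a library alike, it leaves their order against the median gene as it was. With that rescaling 2 of the 3 inducible subunits and 4 of the 47 detected members (8.51%, against 4.46% of all detected genes) were highest in S44. With scaling by the median ratio of genes they numbered 3 and 18 (38.3%, against 27.3%). With equal sums 7 of the 47 were highest in S52 (14.9%, against 20.5% of all detected genes) and 16 lowest (34.0%, against 40.5%). The 7 were *Psmb8*, *Psmc3*, *Psmd1*, *Psme1*, *Psme2b*, *Psmg1* and *Psmg3*. Of the cap genes these hold only *Psmc3* and *Psmd1*, and they hold no constitutive core gene.

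Marker lists were read beside the inducible subunits. The 10 interferon response genes had medians of 32.2 FPKM (S38), 73.9 (S44) and 48.6 (S52). As deposited, 7 of 10 were highest in S44, as the 3 inducible subunits were, against 28.9% of all detected genes. With equal FPKM sums 6 of the 10 and 2 of the 3 were, against 4.46%. *Gbp4*, an interferon-induced GTPase, was at 33.8, 101 and 49.9 FPKM. *Irf1*, also induced by interferon-γ, followed another order, at 404, 636 and 877 FPKM. The leukocyte list had medians of 16.1, 15.4 and 1.96 FPKM, and *Ptprc*, which encodes CD45, was at 4.30, 2.06 and 0.434 FPKM. In S52, where leukocyte markers were lowest, *Psmb8*, *Psmb9* and *Psmb10* were no lower than in S38, by log2 differences of 0.41, 0.065 and 0.045 as deposited, whereas with equal FPKM sums these were 0.11, -0.23 and -0.25. The part of interferon signalling or of other cells in the inducible levels was not tested.

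**Figure D4:**
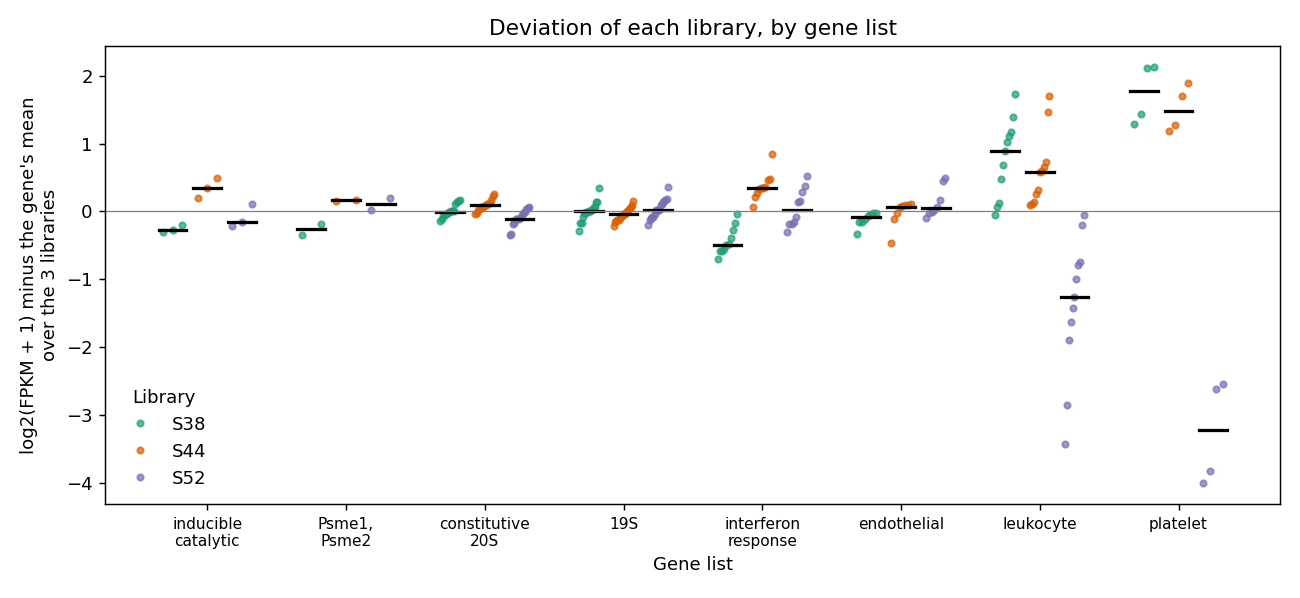
Deviation of log2(FPKM + 1) from each gene's mean over the libraries (vertical) for genes of 4 proteasome lists and 4 marker lists (horizontal). Points are genes, black bars medians and colours libraries. As deposited, medians of the inducible subunits and of the interferon response genes are highest in S44 and lowest in S38, whereas those of leukocyte and platelet genes are lowest in S52, and the constitutive core and cap stay near 0.

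Other genes of the pathway were read by list. Of 10 proteasome-associated genes 9 were found in the table, all at 1 FPKM or above. *Pomp*, the maturation factor of the core, was the highest by mean at 189, 244 and 216 FPKM, followed by *Shfm1*, which encodes a small lid subunit, at 236, 215 and 179 FPKM. The ubiquitin receptor *Adrm1* was at 55.1 ± 5.93 FPKM, the deubiquitylases *Usp14* and *Uchl5* at 12.8 ± 0.225 and 6.70 ± 1.049 FPKM (SD, n = 3 for each). Among the regulators, *Nfe2l1*, the factor that raises proteasome genes when the proteasome is inhibited, was at 60.5, 58.7 and 95.01 FPKM. Of the antioxidant factor *Nfe2l2* the level was 91.4 ± 8.34 FPKM (SD, n = 3). S52 was thus high for *Nfe2l1*. As deposited, the 19S median was 56.8, 55.1 and 58.9 FPKM, and the constitutive 20S median 110, 114 and 96.6 FPKM. With equal FPKM sums the 19S median was not highest in S52. A relation of these medians to *Nfe2l1* was not tested.

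Several genes of class I peptide loading were, as deposited, also highest in S44. *Tap1*, the neighbour of *Psmb9*, was at 62.8 FPKM in S38, 120 in S44 and 70.5 in S52, and *Tap2* at 84.9, 126 and 89.5 FPKM. *Nlrc5*, the transactivator of class I genes, was at 10.0, 18.6 and 5.72 FPKM. Of the 8 genes of interferon induction and class I loading 5 were, as deposited, highest in S44, against 28.9% of all detected genes. *B2m*, the light chain of class I molecules, was at 6618, 6531 and 5719 FPKM. The 3 ubiquitin genes were, as deposited, all highest in S52, against 33.9% of all detected genes. Among them *Ubb* was at 1067, 1074 and 1881 FPKM. The 6 genes that deliver substrates, *Rad23* and ubiquilin shuttles and *Vcp*, had a median of 32.0 FPKM. *Vcp*, which encodes the p97 ATPase that extracts ubiquitylated proteins from complexes, was the highest at 108 ± 3.58 FPKM (SD, n = 3).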

How the data were processed

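RNA of sorted adult lung ECs was selected for poly-A, made into libraries without strand information and sequenced as paired reads of 51 bp. For 3 libraries of 1 condition, the authors provided a table of FPKM by gene symbol (build mm10), used here as deposited. The submitters' processing notes name bcl2fastq 2.17, FastQC 0.11.5, Trimmomatic 0.36, TopHat2 2.1.0 and Cufflinks 2.2.1, whereas the study's methods name STAR and HTSeq for its counts. The gene annotation is not given in the sources used here. All per-sample columns were used.

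Values were taken as deposited. Differences used log2(FPKM + 1), which understates changes of low genes, and a two-sided exact sign-flip permutation test over the libraries, with Benjamini-Hochberg adjustment over 6 comparisons. A gene was detected at a mean of 1 FPKM. Models for read counts were not applied to FPKM. For the depth, 7077 genes with a single basic transcript of 800 to 4000 bp were used to find the library total at which low FPKM correspond to integer fragment numbers. Within 0.15 of a whole number lay 79.9% of 314 low values in S38, 77.6% of 401 in S44 and 74.0% of 204 in S52, but the total was chosen on these same values, a method added after seeing the data. The search, the fold rule and the permutation test were tested on simulated data. Read-length windows of the longest basic transcript were compared with all GENCODE M21 transcripts on both strands. Python 3.11.15, numpy 2.4.6, pandas 2.3.3 and scipy 1.17.1 were used.

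The members, lists, motifs and tests were chosen with earlier results of these data known. Named genes were the catalytic subunits, *Psme1* to *Psme4*, the highest and lowest member of each group, the 5 detected members with the widest range and every member under 1 FPKM. Others named were chosen after their values were seen. Some genes of the pathway and marker lists are not reported here, and counts and medians leave them out. Alternatives were other pseudocounts, minimum levels and scalings, other averages over the sites, and leaving out each library.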

Additional observations from a re-analysis of the deposited data

How the results depend on the processing

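Of 77 alternatives over 14 results, 71 kept the direction, or stayed within 1.5 times a count or within the SD of a share. Some of these could not have come out otherwise. With 3 libraries, leaving out 1 cannot move a mean share by as much as its SD. Differences between genes of 1 library hardly change when that library is rescaled. Leaving out S44 turned the sign of the difference between *Psmb10* and *Psmb7*, which ranged from -0.14 to 0.21 over the libraries left out. The number of members over 2-fold between libraries, 1 as reported, was 0 to 1 with each library left out, 3 with no minimum level (*Psma8* and *Psmb11* added, which are low) and 3 with equal FPKM sums (*Psmd11*, *Psmg1* and *Psmg2*, without *Psme2b*). The members highest in S52 fell from 17 to 7 with equal FPKM sums, which lower S52 against S38, and were 19 with median-ratio scaling. The cause of the unequal sums was not tested. Over the libraries left out, the mean difference between inducible and constitutive subunits ranged from 0.35 to 0.67, and against the median of the 14 constitutive 20S genes, an alternative chosen after seeing the data, it was 0.39. Each test paired genes within a library. Pairing of libraries between groups was not possible because all libraries belong to 1 group. The number of libraries limits every p-value here, and depth bears most on *Psma8* and *Psmb11*, the lowest members.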
